A study of Mus musculus with 6 samples.

Results

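Small heat shock proteins are a family of compact chaperones built around the alpha-crystallin domain. The genes described here are the family members Hspb1, Hspb2, Hspb3, Cryab, Hspb6, Hspb7, Hspb8 and Hspb9 together with Bag3, which encodes the co-chaperone that binds Hspb8. These 9 genes, of 19751 that the array names, were listed by family, and the group was chosen by the knockout against wild-type differences on these same arrays, with that of Hspb8 among them. The differences of the 9 genes between genotypes are therefore given as a description, without p-values. Where members are counted past the threshold of the fit over all probes, the count is printed beside that of all probes and supports nothing. They are represented by 10 probes, 2 of them for Cryab, and 8 of the 9 genes had a probe bright enough to be analysed. Hspb3 had no array on which its probe was well above background.

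Whole testis was taken from 6 male C57BL/6J mice aged 10 weeks, 3 carrying the TAp73 knockout (TAp73 KO) and 3 wild type, and the RNA of each mouse was hybridised to 1 one-colour Agilent array. TAp73 denotes the products of Trp73 that carry a transactivation domain, p73 being a relative of the tumour suppressor p53. Both genotypes share strain, sex, age and tissue, and the sources used here do not say how the allele was made or whether the mice were littermates. In whole testis, fewer cells of a type and less RNA per cell cannot be told apart.

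Levels are given as a percentage of the array's 75th percentile, the intensity below which 75% of its probes lie. Because probes differ in how well they bind, levels of different genes were not set against each other. Differences are knockout minus wild type on the log2 scale. All 3 Trp73 probes were lower on every knockout array. The probe that was well above background on all 6 arrays, A_52_P410636, had a log2 difference of -0.99. The other two had -6.01 and -3.21, but were well above background on only 1 and 2 of the 3 knockout arrays, so these sizes are taken against a level near background. The labels of the authors' value table oppose those of the scanner files: every array labelled knockout in one matched a column labelled wild type in the other, with correlations of 0.968 to 0.994. The labels of the scanner files were used because Trp73 is lower on the arrays that they call knockout. The lower Trp73 signal is therefore no separate check of the labels. Under the labels of the value table the differences of Hspb8 and Hspb1 change sign. The 75th percentile itself was higher in the wild type by 0.26 on the log2 scale, and knockout replicate 1 stood apart, with a first principal component of -66.2 where the other arrays had -4.9 to 30.8.

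As background, small heat shock proteins hold unfolding proteins in a soluble state without using ATP and pass them to HSP70 chaperones for refolding or disposal. Hspb8 and Bag3 form a complex with HSP70 and the ubiquitin ligase Stub1 that sends damaged proteins to the autophagosome, a route called chaperone-assisted selective autophagy. Many members are best known from muscle, heart and the lens, Hspb9 is known as a testis gene, and Hspb1 is a classical target of heat shock factor 1. Heat shock factors bind inverted repeats of the unit GAA.

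The sequences before the starts of Hspb8 and Hspb1 are shown because these are the members with the lowest knockout level relative to wild type. Both genes lie on chromosome 5. The windows are the 250 bases before the transcription start in RefSeq, assembly GRCm38.p6, at chr5:116422865-116423114 on the minus strand for Hspb8 and at chr5:135887669-135887918 on the plus strand for Hspb1. Capitals mark matches to the heat shock element unit GAANNTTC.
Hspb8: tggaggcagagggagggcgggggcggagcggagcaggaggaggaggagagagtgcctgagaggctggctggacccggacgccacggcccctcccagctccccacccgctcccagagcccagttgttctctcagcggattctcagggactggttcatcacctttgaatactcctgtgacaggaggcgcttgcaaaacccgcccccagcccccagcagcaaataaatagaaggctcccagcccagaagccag
Hspb1: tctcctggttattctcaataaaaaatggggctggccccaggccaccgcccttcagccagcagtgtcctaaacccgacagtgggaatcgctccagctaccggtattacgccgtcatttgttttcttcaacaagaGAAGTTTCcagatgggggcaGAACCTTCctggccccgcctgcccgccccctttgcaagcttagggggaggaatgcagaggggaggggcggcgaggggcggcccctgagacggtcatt
The Hspb1 window holds 2 such units, starting 117 and 97 bases before the start, and the Hspb8 window holds none. Among 32851 RefSeq promoter windows, 6.69% hold GAANNTTC. The related unit TTCNNGAA is in 7.17% of windows and either unit in 12.8%. Both units read the same on either strand. Windows were at hand for 7 of the 9 genes. GAANNTTC was also found in 1 window of Hspb6 and in that of Hspb3, and neither unit was in those of Bag3, Hspb7 or Hspb9. A longer run of 3 inverted repeats of GAA, held by 0.466% of all windows, was in none of the members' windows, that of Hspb1 included. The p53 half-site, held by 7.13% of all windows, was in none of them either. These are matches of letters only and say nothing of binding.

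Hspb8, the partner of Bag3 in autophagic disposal, was lower in every knockout than in any wild-type mouse. Its level was 2.12%, 2.25% and 1.89% of the 75th percentile in the 3 knockouts and 9.51%, 11.9% and 11.7% in the 3 wild types. The mean level was 2.09% ± 0.18 in the knockout and 11.0% ± 1.32 in the wild type (SD, n = 3 each). The 6 values fall into separate ranges by genotype, with little spread inside either. The log2 difference was -2.40 (SE 0.12), a level 5.27-fold lower in the knockout with a 95% interval of 4.32 to 6.44. The processed signals behind these levels were 109, 93.0 and 82.9 units in the knockouts and 541, 615 and 635 units in the wild types, and all were well above background. The signal is dim, so the size of the fold depends on how background is treated: with the normexp correction the log2 difference was -1.22, where the median over all probes was 0.22 and no probe passed the threshold. On the slide that held 4 arrays the difference was -2.27, and between the 2 arrays of the other slide it was -2.65.

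Bag3, which links Hspb8 to HSP70, did not share that pattern. Its level was 403%, 366% and 437% in the knockouts and 322%, 317% and 379.5% in the wild types. The groups overlap, since wild-type replicate 3 lies above knockout replicate 2. The log2 difference was 0.25 (SE 0.11), with a 95% interval of -0.02 to 0.51. The interval includes 0, and the difference is close to the 0.26 by which the 75th percentile differed between the genotypes. With quantile normalization the difference was 0.17, and under every setting tried with the scanner files it lay between 0.12 and 0.46. Whether the scaling has a part in it was not tested. No direction is given for Bag3.

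Hspb1, the mouse protein known as Hsp25, is a broadly expressed member that p38 kinase signalling regulates by phosphorylation. Its level was 573%, 544% and 539% in the knockouts and 845%, 821% and 899.7% in the wild types. All 3 knockout values lie below all 3 wild-type values, and none of the spots was saturated. The log2 difference was -0.63 (SE 0.07), a level 1.55-fold lower with a 95% interval of 1.37 to 1.75. It was -0.64 within the slide of 4 arrays and -0.61 between the 2 arrays of the other. It stayed between -0.73 and -0.57 under every setting tried with the scanner files.

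**Figure D1:**
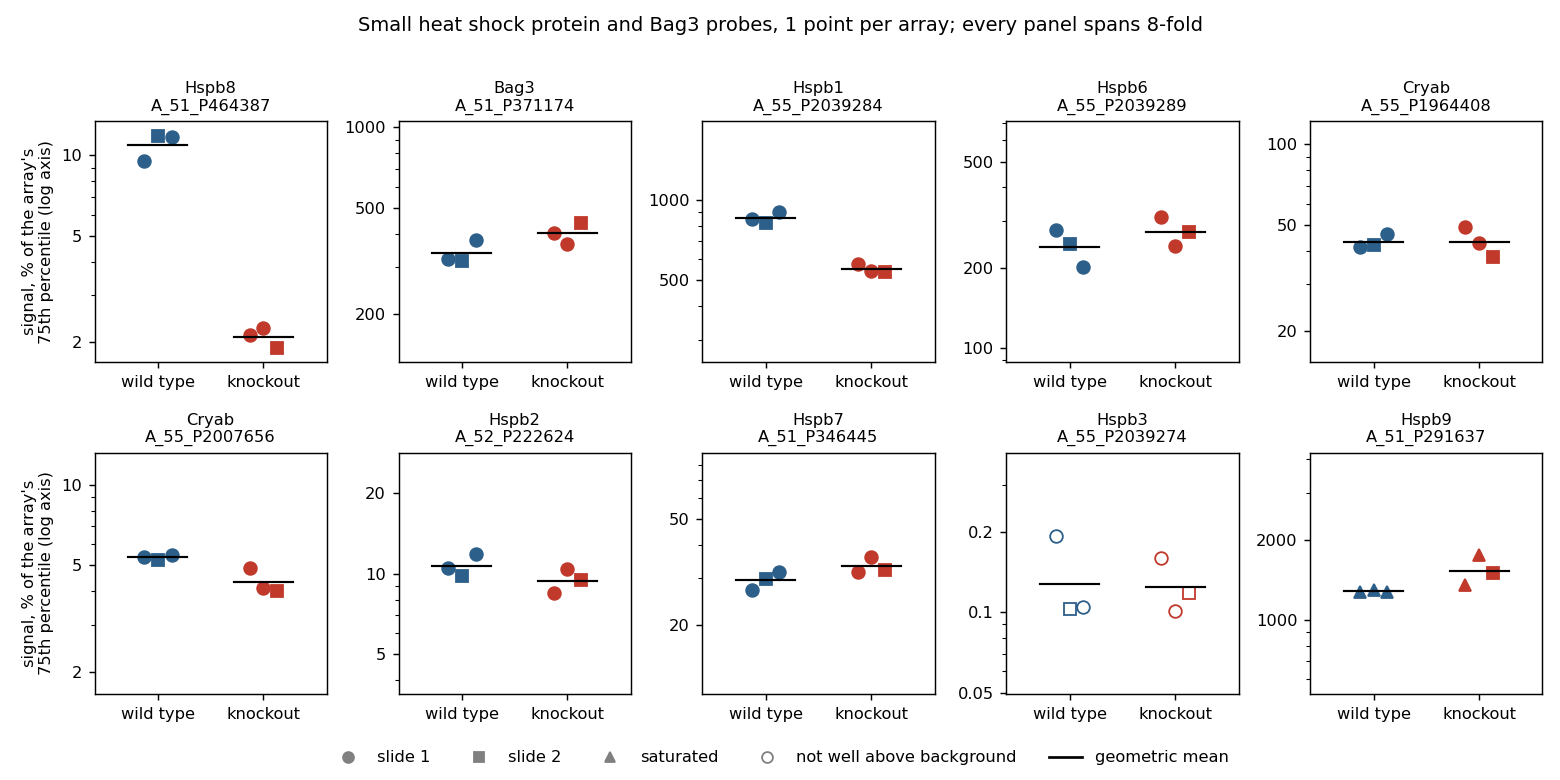
Level of each gene's probe on each array, as a percentage of the array's 75th percentile on a log axis that spans 8-fold in every panel; circles are slide 1, squares slide 2, triangles saturated spots, open symbols arrays not well above background, and bars geometric means of 3 arrays. The groups separate for Hspb8 (2.12%, 2.25% and 1.89% against 9.51%, 11.9% and 11.7%) and for Hspb1, while Bag3, Hspb2, Hspb6 and Hspb7 overlap.

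The members best known from heart and skeletal muscle showed overlapping groups on their main probes. Hspb6, or Hsp20, was at 309%, 242% and 272% in the knockouts and 277%, 246% and 202% in the wild types. Its log2 difference was 0.19 (SE 0.15), with an interval of -0.17 to 0.54. Hspb7, the cardiovascular member, was at 31.6%, 36.1% and 32.1% against 27.1%, 29.8% and 31.7%, with a log2 difference of 0.17 (SE 0.09) and an interval of -0.06 to 0.40. Hspb7 is measured by 10 spots of the same probe. The software marked 1 of them on knockout replicate 1 and 2 on wild-type replicate 1, and these were left out. The coefficient of variation of the kept spots within an array was 1.99% to 6.31%. With all marked spots kept, the log2 difference was 0.10. Hspb7 lies on chromosome 4, the chromosome of Trp73, 166 protein-coding genes away from it.

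Cryab, which encodes alphaB-crystallin, and Hspb2 are neighbours on chromosome 9. The brighter Cryab probe read 49.0%, 42.6% and 38% in the knockouts and 41.3%, 42.2% and 46.2% in the wild types, a log2 difference of -0.01 (SE 0.11, interval -0.28 to 0.27). The dimmer Cryab probe read 4.91%, 4.13% and 4.0% against 5.4%, 5.25% and 5.46%, with no overlap and a log2 difference of -0.31 (SE 0.10). The 2 probes of this gene therefore disagree. Hspb2 was at 8.49%, 10.4% and 9.44% in the knockouts and 10.5%, 9.82% and 11.9% in the wild types. Its groups overlap, and its log2 difference was -0.19 (SE 0.11, interval -0.46 to 0.08). Hspb3, which pairs with Hspb2 in muscle, gave processed signals of 8.26, 4.18 and 5.18 units in the knockouts and 11.0, 5.34 and 5.69 units in the wild types. None was well above background, so no fold is given.

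Hspb9, the testis member, was limited by the upper end of the scanner's range. Its processed signal was 70040, 72693 and 65540 units in the knockouts and 72278, 67159 and 68865 units in the wild types, and it was saturated on 2 of 3 knockout and 3 of 3 wild-type arrays. Its scaled log2 difference of 0.26 equals the 0.26 by which the 75th percentile differed between the genotypes, and with quantile normalization it was -0.01. No direction is given for Hspb9.

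Of the 8 genes analysed, 2 were past the adjusted threshold of 0.05 (limma), both lower in the knockout, and 0 were past it in the higher direction. Over all 31801 tested probes, 838 (2.64%) were lower and 79 (0.248%) higher. Before adjustment, p was under 0.05 for the same number of the 8 genes, 2 lower and 0 higher. The genotype groups did not overlap for 2 genes lower in the knockout, Hspb8 and Hspb1. The scaled values of Hspb9 did not overlap either, with the knockout above, but from its saturated spots no direction is taken. Of all probes, 13.1% did not overlap with the knockout lower and 18.6% with the knockout higher. Since this contrast chose the members, nothing is read from these shares. The median log2 difference was 0.08 over the 8 genes and 0.06 over all probes.

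**Figure D2:**
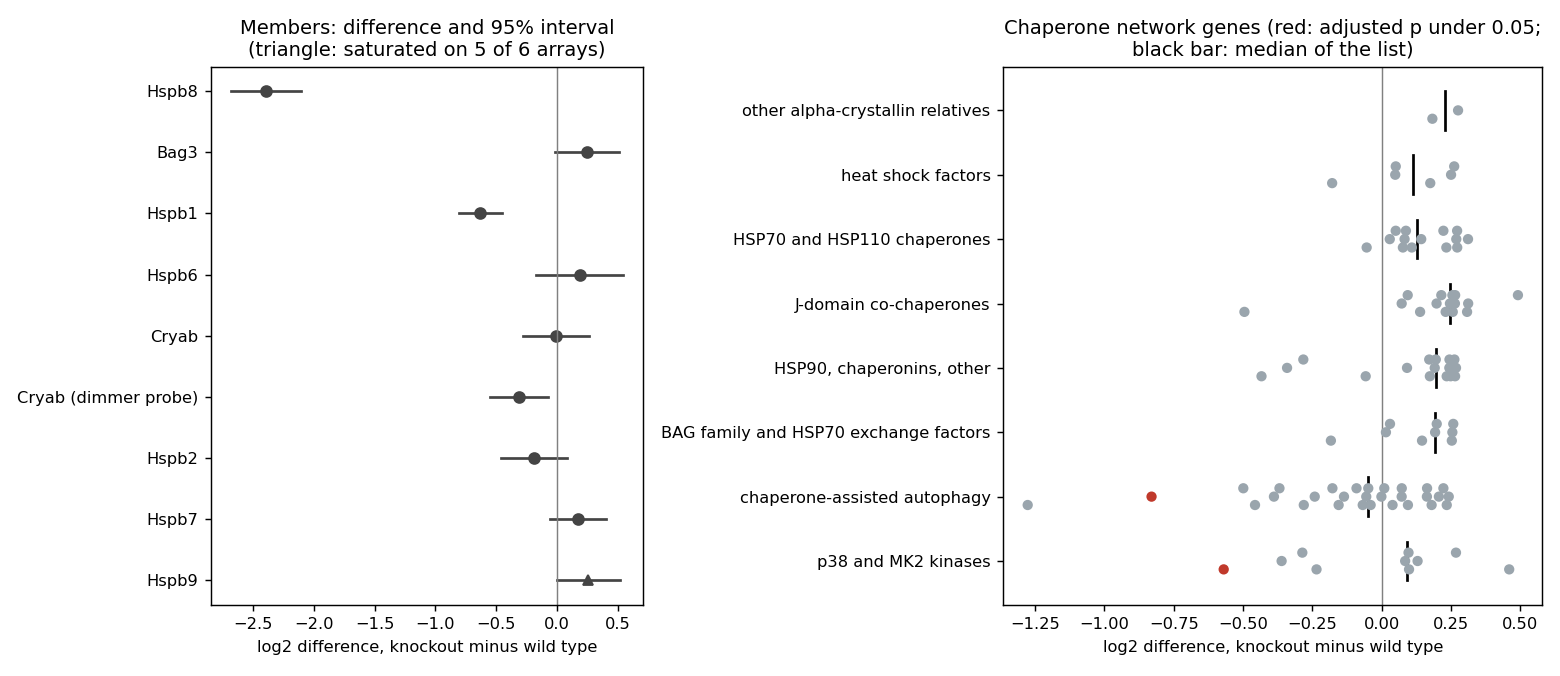
Log2 differences, knockout minus wild type; at left each member's probe with its 95% interval, at right the genes of the chaperone network by list, in red where the adjusted p was under 0.05 and with a black bar at the list's median. Hspb8 (-2.40) and Hspb1 (-0.63) lie to the left of 0, and only Wwtr1 and Mapkapk3 are red among the network genes.

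The slides gave a contrast that the choice of members did not use. Slide 1 held knockout replicates 1 and 2 with wild-type replicates 1 and 3, and slide 2 held the other two arrays. Adjusted for genotype, 0 of the 8 genes differed between slides (limma, adjusted p = 0.999 for each, and 0 of 8 at an unadjusted p under 0.05). Over all probes 0% were past the threshold, with 877 probes at an unadjusted p under 0.05. The Hspb8 coefficient, slide 2 minus slide 1, was -0.02 (SE 0.14), and that of the brighter Cryab probe was the largest of the 8 in size, at -0.16.

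The wider chaperone network was described from 8 lists, which hold 102 measured genes. Of these, 2 fell and 0 rose, against 2.64% and 0.248% of all probes, and before adjustment 11 were lower and 19 higher with p under 0.05, beside 3464 and 3897 of all 31801 probes. The 19 higher became 4 with quantile normalization, 0 with normexp and 43 with median scaling, and the 11 lower became 11, 7 and 9. The median log2 difference was 0.13, and 30 of the 102 genes were saturated on at least 1 array. Once arrays were quantile normalized, the medians of the 8 lists lay between -0.09 and 0.10. By mean level per array, the list for chaperone-assisted autophagy was lower in the knockouts without overlap, also with quantile normalization. The HSP70 and HSP110 list and the list of other relatives were higher without overlap in both scalings. The heat shock factor and BAG lists were higher without overlap, but overlapped with quantile normalization. The J-domain, HSP90 and kinase lists overlapped in both.

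No gene passed the test among the partners that act with Hspb8 and Bag3 on client proteins. For HSP70 and HSP110 chaperones, 0 of 14 passed (3 higher and 0 lower before adjustment), and the list's median was 0.13, or 0.05 under quantile normalization. The smallest p was that of Hspa1l, a testis HSP70, with a log2 difference of 0.31 (adjusted p = 0.0983), and its probe was saturated on 4 of 6 arrays. For J-domain proteins, which stimulate HSP70, 0 of 15 passed (6 higher and 0 lower unadjusted), with a median of 0.25, or 0.04 under quantile normalization, and Dnajb9, a protein of the endoplasmic reticulum, was at 0.49 (adjusted p = 0.10). For the BAG family and other exchange factors, 0 of 9 passed (1 higher and 0 lower unadjusted), with a median of 0.19 that became -0.002 under quantile normalization. Bag6 had the smallest p there, with a difference of 0.25 (adjusted p = 0.204), close to the 0.26 of the 75th percentile, on a probe saturated on 4 of 6 arrays. Stub1, the ligase of the Hspb8 and Bag3 complex, was at 0.02 (adjusted p = 0.935), and the constitutive HSP70 gene Hspa8 was at 0.22 (adjusted p = 0.272), also with saturation on 4 of 6 arrays. Saturated spots cannot show a difference in full, so no direction is read from Hspa1l, Bag6 or Hspa8.

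In the list for chaperone-assisted autophagy, 1 of 29 genes fell and 0 rose, with 6 lower and 1 higher before adjustment. The gene that fell was Wwtr1, which encodes TAZ, a transcriptional co-activator of the Hippo pathway, and which is no autophagy factor itself. Its level was 4.68%, 4.24% and 3.88% in the knockouts and 6.98%, 7.62% and 8.14% in the wild types, a log2 difference of -0.83 (SE 0.10, adjusted p = 0.0172). It was -0.23 with the normexp correction (adjusted p = 0.697) and -0.76 within slide 1 (adjusted p = 0.325). Its adjusted p was 0.0487 with slide as a block and 0.132 with the replicate block. No network gene, Wwtr1 included, was called lower without knockout replicate 2 or 3 or without wild-type replicate 2 or 3. The list's median was -0.05, or -0.09 under quantile normalization and 0.01 under median scaling. Its mean log2 level was 0.174 to 0.284 in the knockouts and 0.343 to 0.376 in the wild types, which do not overlap. Sqstm1, the autophagy receptor p62, was at -0.28 (adjusted p = 0.342).

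Among p38 and MK2 kinases, the pathway that phosphorylates Hspb1, 1 of 10 genes fell and 0 rose, with 3 lower and 1 higher unadjusted. Mapkapk3, a kinase downstream of p38, was at 30.3%, 33.6% and 30.1% in the knockouts and 45.9%, 46.9% and 46.6% in the wild types. Its groups do not overlap, and its log2 difference was -0.57 (SE 0.08, adjusted p = 0.0202). With slide as a block its adjusted p was 0.0581, and leaving out any 1 array gave 0.0522 to 0.105, so the call rests on all 6 arrays. Its relative Mapkapk2 was at -0.36 (adjusted p = 0.10).

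The remaining lists held no call. In the list of heat shock factors, which also holds a gene for a protein that binds them, 0 of 6 passed (2 higher and 0 lower unadjusted). The list's median was 0.11, or 0.03 under quantile normalization. Hsfy2 had the smallest p there, with a difference of 0.26 (adjusted p = 0.19). Of the HSP90, chaperonin and other heat shock proteins, 0 of 17 passed (3 higher and 2 lower unadjusted, median 0.19, or -0.004 under quantile normalization). The smallest p was that of the mitochondrial chaperonin Hspd1, with a difference of -0.34 (adjusted p = 0.132). Among the genes listed as relatives of the 9 members, Odf1, a protein of the sperm tail's outer dense fibres, was at 0.28 (adjusted p = 0.197) and was saturated on 4 arrays. Hspb11 was at 0.18 (adjusted p = 0.202).

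Markers of several cell types were set beside the fall of Hspb8 and Hspb1. Over all tested probes, 2.64% fell and 0.248% rose, and 3464 and 3897 of 31801 had an unadjusted p under 0.05 (limma). Of 18 Sertoli cell markers 4 fell and 0 rose (12 lower and 0 higher unadjusted). Their mean log2 level was -0.49 to -0.35 in the knockouts and -0.04 to 0.02 in the wild types. Of 11 macrophage markers 4 fell and 0 rose (7 lower and 0 higher unadjusted). Their mean levels were -1.60 to -1.49 against -1.18 to -0.98. The groups do not overlap for either list, also with quantile normalization. The median differences were -0.44 for Sertoli cells and -0.43 for macrophages, beside -2.40 for Hspb8 and -0.63 for Hspb1. Their part in the result was not tested.

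Both muscle lists overlapped between the genotypes. Of 13 peritubular smooth muscle markers 1 fell and 0 rose, with overlapping mean levels of -1.18 to -0.99 in the knockouts and -1.21 to -0.91 in the wild types. Of 16 striated muscle markers 0 passed (3 lower and 2 higher unadjusted), with levels of -4.65 to -4.47 against -4.61 to -4.40. Of 10 endothelial markers 0 passed (1 lower and 0 higher unadjusted), with levels of -3.0 to -2.91 against -2.97 to -2.81. Of 9 Leydig cell markers 1 fell and 0 rose, with levels of 0.64 to 0.93 against 0.70 to 1.08, and of 6 blood markers 0 passed (2 lower and 0 higher unadjusted), with levels of -1.40 to -0.98 against -1.07 to -0.99. Endothelial, Leydig and blood lists overlap as well. Of 12 spermatid markers 0 passed (6 higher and 0 lower unadjusted), with levels of 3.54 to 3.82 against 3.38 to 3.55, which overlap, and 10 of the 12 were saturated on at least 1 array. Of 10 markers of spermatogonia and spermatocytes 0 passed (4 higher and 1 lower unadjusted). Their mean levels, 0.139 to 0.207 in the knockouts and 0.0888 to 0.136 in the wild types, did not overlap, and with quantile normalization they did. Of 8 epididymal markers 1 fell, Spink8 with a log2 difference of -1.11, and 0 rose. Their mean levels of -4.05 to -4.0 lay below the -3.94 to -3.9 of the wild types without overlap, although the list's median difference was 0.04. A further 2 epididymal and 2 blood markers were at background on all arrays.

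**Figure D3:**
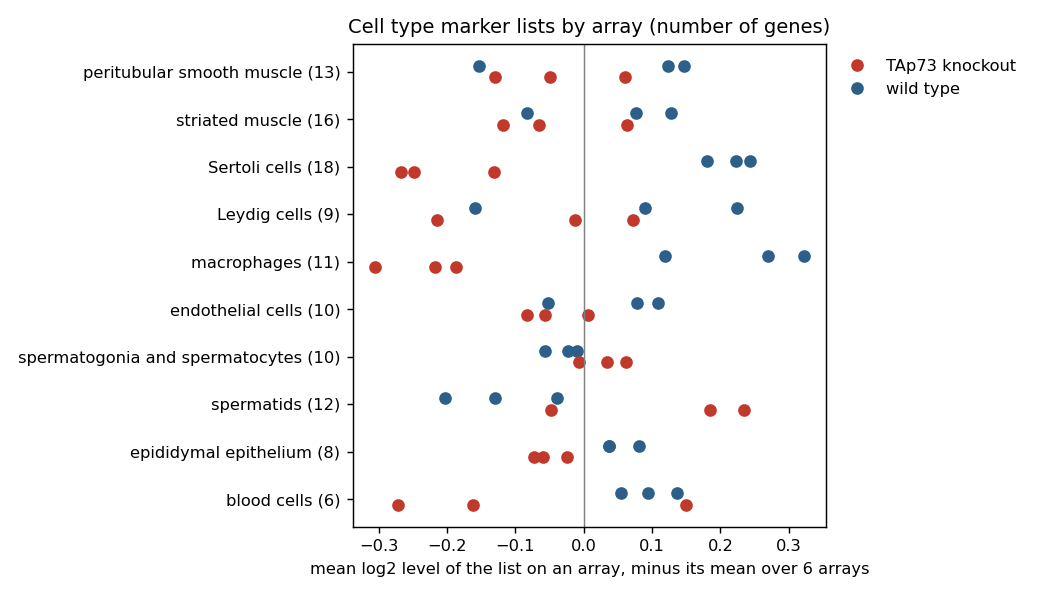
Mean log2 level of each cell type's marker list on each array, minus its mean over the 6 arrays, for knockout and wild-type mice. Sertoli cell and macrophage lists lie lower on all 3 knockout arrays. So does the epididymal list, although its median difference was 0.04 and only 1 of its 8 markers, Spink8, fell. The list of spermatogonia and spermatocytes lies higher, though not with quantile normalization. Smooth muscle, striated muscle and endothelial lists overlap between the genotypes.

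The genes whose pattern over the 6 arrays lay nearest to that of Hspb8 were found among 16947 genes by the root mean square distance between centred log2 levels. The nearest was Tnfrsf12a, the receptor of the cytokine TWEAK, at a distance of 0.118 and with a log2 difference of -2.48. It was followed by Ly6d, a lipid-anchored surface protein, at 0.190 (-2.35), by a probe of the water channel gene Aqp5 at 0.195 (-2.63), by the receptor gene Robo4 at 0.254 (-2.80) and by Edn1, the endothelin-1 precursor, at 0.259 (-1.94). Each was well above background on all 6 arrays. The distance takes in the genotype difference that chose Hspb8, so the order is a description.

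**Figure D4:**
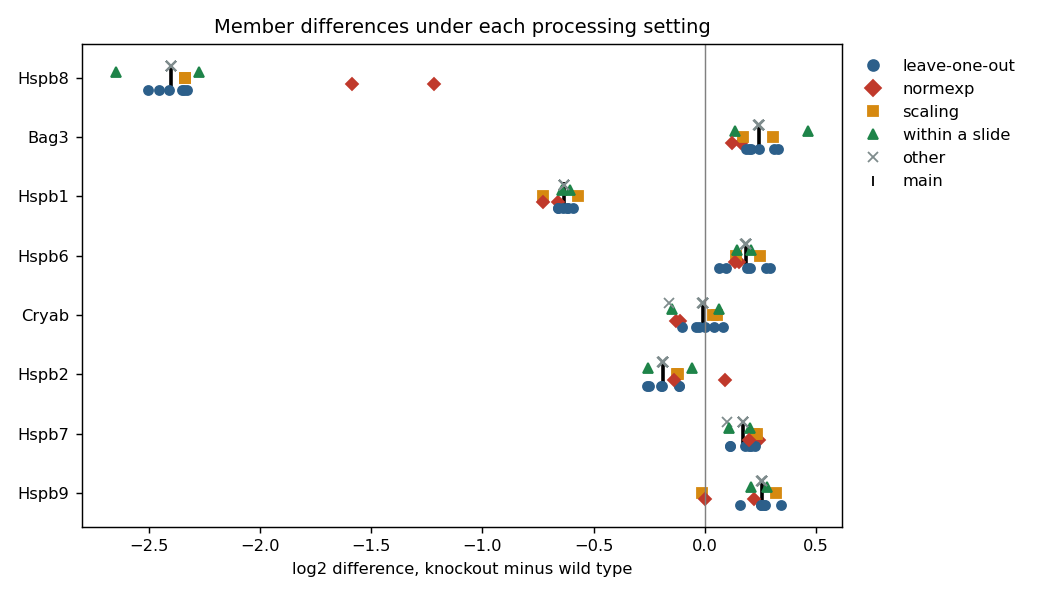
Log2 difference of each member, knockout minus wild type, under each processing setting. Hspb8 stays between -2.65 and -1.22 and Hspb1 between -0.73 and -0.57, while points for Hspb2, Cryab and Hspb9 fall on both sides of 0.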

How the data were processed

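The authors scanned the arrays and read them with the 1-colour protocol of Feature Extraction 10.7.3.1, per the file headers. The deposited values are linear spot intensity, of which the background-subtracted processed signal was used. The submitters' processing notes name limma without a version. The deposited value table also holds probe intensity on a linear scale, and was used as an alternative.

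Control spots were left out, and 163 to 280 spots per array marked non-uniform or outlying by the software were set to missing. Log2 signals were averaged per probe and expressed relative to the 75th percentile of the array. Probes well above background on at least 3 of 6 arrays, with at least 2 values per group, were tested: 31801 of 39429. Between 74.4% and 84.4% of probes were well above background on an array and 1.59% to 4.45% were saturated. The number of arrays limits the precision. The test was that of limma 3.58.1 (R 4.3.3), two-sided, with Benjamini-Hochberg adjustment over all tested probes. One probe stood for each gene, the brightest with all 6 values. Accessions were matched to RefSeq GRCm38.p6, which named 26055 probes.

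The genes named are the members and Trp73, in each pathway list the called genes or else that with the smallest p, and the 5 nearest to Hspb8. Further genes (Stub1, Hspa8, Sqstm1, Mapkapk2, Hspb11, Hspe1, Dnajb6, Spink8) were chosen after their values were seen. The members and lists were chosen with earlier results of these data known. Alternatives were normexp (on median signals, offset 50), quantile and median scaling, other filters, slide and replicate blocks, and leaving out each array. Normexp with quantile normalization, and leaving out saturated probes, were chosen after seeing the data.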

Additional observations from a re-analysis of the deposited data

How the results depend on the processing

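Probes called lower and higher numbered 838 and 79. They were 0 and 0 with normexp (before adjustment, 810 lower and 1075 higher with p under 0.05) and 0 and 0 within slide 1 (1806 and 1357 unadjusted), both by limma. They were 868 and 217 with quantile normalization, 569 and 143 with median scaling, 349 and 13 without a filter on dim probes, 1109 and 165 among probes above background on all 6 arrays, 299 and 15 with slide as a block, and 405 and 91 with normexp and quantile normalization together. The lower share of calls was 91.4% at first, 80.0% with quantile normalization and 79.9% with median scaling. Leaving out 1 array gave 120 to 467 lower and 6 to 26 higher. With the replicate block the counts were 9 and 1, with 0 members and 0 network genes lower. In their deviations from the group means, arrays of the same number correlated at -0.03, -0.08 and -0.09. Arrays of different numbers correlated at -0.02 to 0.095. Nothing in the labels says that the numbers pair the mice, and with 3 arrays per group these values cannot settle it.

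The 2 members past the threshold became 0 with normexp and within slide 1 (by limma, 2 lower before adjustment in each), and 1 to 2 when 1 array was left out. The member that dropped out of this count was Hspb1, without knockout replicate 2 or 3 or wild-type replicate 2 or 3. The 2 network genes lower became 0 with normexp (7 lower unadjusted) and within slide 1 (5 lower unadjusted), 4 with quantile normalization, 1 with slide as a block and 0 to 1 when 1 array was left out. The counts of members and of network genes called higher were 0 in each of these settings. In the value table, under its own labels, Hspb8 was at 2.34 and Hspb1 at 0.726. Settings with fewer arrays or added terms left fewer degrees of freedom. Why calls were lost was not tested in these settings or with normexp.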

Other observations

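Dnajb6, a J-domain co-chaperone, has 4 probes that disagree. Its brightest, A_55_P2013188, gave a processed signal of 13370 units on knockout replicate 1 and 63917 to 81411 units on the other 5 arrays, and a log2 difference of -0.50 (SE 0.73). Its other probes had differences of 0.19 (SE 0.07), 0.32 (SE 0.06) and 0.38 (SE 0.09). The value of this gene in the J-domain list therefore depends on 1 array.

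The mitochondrial chaperonin Hspd1 and its partner Hspe1 had log2 differences of -0.34 and -0.28 (limma, adjusted p = 0.132 and 0.16), with every knockout array below every wild-type array for both. Neither passed the threshold.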
